A study of Mus musculus with 18 samples.

Results

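Bone morphogenetic proteins (BMPs) are secreted ligands that bind pairs of type I and type II receptor kinases at the cell surface. The activated type I receptor phosphorylates Smad1, Smad5 and Smad9, which enter the nucleus with Smad4 and switch on target genes, and inhibitory Smads such as Smad6 damp the signal. In mESCs the best known targets are the Id genes, whose products bind E proteins and keep them from activating lineage genes, and in the gastrulating embryo BMP4 acts in the posterior, where mesoderm forms and the homeobox genes Msx1 and Msx2 are targets. The genes described here were chosen by symbol for their roles in this pathway and are 9 of the 55487 genes in the count table: the ligand Bmp4, the type I receptor Bmpr1a, the signal-transducing Smad5, the inhibitory Smad6, the targets Id1, Id2 and Id3, and the targets Msx1 and Msx2. All 9 were found and all 9 had enough counts to be tested in every comparison.

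RNA was sequenced from 18 libraries of the mouse line ES-E14TG2a, kept as mESCs in Serum/LIF, in which LIF is the cytokine that holds the cells undifferentiated. The 3 IκBα-WT mESC clones (genotype IkappBalpha+/+, 0 hr) had been transfected with non-targeting guides, and the 3 IκBα-KO mESC clones (IkappBalpha-/-, 0 hr) with a pair of guides against exon 1 of Nfkbia, the gene of the NF-κB inhibitor IκBα. Each library is 1 single-cell clone. Embryoid bodies (EBs), aggregates in which mESCs differentiate in suspension without LIF, were collected at 48 hr (6 libraries) and at 96 hr (6 libraries), and each of these stages held 3 IκBα-WT and 3 IκBα-KO samples. The EB libraries carry the codes D4, E14, E2, E3, H7 and H9, which the labels do not pair with a genotype, so EBs were compared by stage with both genotypes mixed, and genotypes were compared in mESCs only. The libraries held 28287582 to 40904247 counts on genes. Levels are in CPM, which scales each library to the same TMM-adjusted total, and a gene was called at an adjusted p under 0.05 from edgeR's quasi-likelihood test over all genes tested. Within a stage clones, and not repeated cultures of 1 clone, are the replicates. The EB codes recur at 48 hr and 96 hr, and the labels do not pair the mESC clones with them. The main stage fit treats all 18 libraries as independent.

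In mESCs the targeted gene was lower in the IκBα-KO clones, with Nfkbia at 34.2, 35.1 and 25.3 CPM in WT clones 1 to 3 and 10.2, 9.44 and 10.1 CPM in KO clones 1 to 3 (log2 fold change -1.67, SE 0.14, adjusted p = 0.00489 by edgeR). Markers of pluripotent cells summed to 4714 to 5893 CPM in the mESC libraries, 2324 to 3378 CPM at 48 hr and 838 to 2609 CPM at 96 hr. Libraries stood apart in both kinds of culture. KO clones 1 and 3 had 278 and 371 CPM of 8 primitive endoderm markers summed, against 43.0 in KO clone 2 and 61.2 to 72.2 in the WT clones. The EB library E14 at 96 hr was more than 1 log2 unit above every other 96 hr library for 288 of the 13177 genes averaging 50 counts or more (2.19%), E3 was so for 240, and the other libraries for 0 to 9.

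Smad complexes bind short DNA motifs, and the promoter windows of the members (RefSeq, GRCm38.p6, 250 bases before to 50 bases after each transcript start) were searched on both strands for 3 of them: GGCGCC, which Smads of the BMP branch bind, the core Smad element CAGAC, read as GTCTG on the other strand, and the palindrome GTCTAGAC. Windows were held for 8 members, in 10 entries; Id1 has none. Of all 32851 windows, 11.9% hold GGCGCC, 49.6% hold CAGAC and 0.213% hold GTCTAGAC. Of the 10 entries of members, 4 hold GGCGCC, 2 hold CAGAC and 1 holds GTCTAGAC. Smad5 gives more than 1 of the GGCGCC entries, with the same site read from different starts, so the entries are not separate sites. At least 1 of the 3 is held by 5 of the 8 members, and the share of all windows with any of the 3 was not counted. The sites are shown as 30 bases each, 5′ to 3′ on the gene's own strand, because they place the pathway's binding letters next to the genes whose levels follow. Capitals mark the motif. Positions count from the RefSeq transcript start, which for Id2, Id3, Bmpr1a and some entries of Smad5 lies inside the gene interval given below.
Id2 (chr12:25096306-25096335, minus strand, motif starting at -231): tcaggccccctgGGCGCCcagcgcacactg
Id3 (chr4:136143643-136143672, plus strand, motif starting at -167): tgtcctcggcgtCAGACcagcctaaggaag
Id3 (chr4:136143742-136143771, plus strand, motif starting at -68): ggacccttggcgGTCTGttttgaataaggg
Smad6 (chr9:64022045-64022074, minus strand, motif starting at -4): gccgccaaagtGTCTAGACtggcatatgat
Smad5 (chr13:56703021-56703050, plus strand, motif starting at -19 or 24, by entry): ccccggcgagcgGGCGCCgagcgcttgtcc
Smad5 (chr13:56703635-56703664, plus strand, motif starting at -21): cgtgcccaagttCAGACtccatcccctccc
Bmpr1a (chr14:34502727-34502756, minus strand, motif starting at -198): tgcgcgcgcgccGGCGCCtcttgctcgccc
The window of Smad6 held the palindrome across its transcript start, a sequence present in 70 of the windows searched. No match was found in the windows of Bmp4, Msx1 and Msx2, and none of the matches overlapped one another. A match is a run of letters and not a measured binding site.

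The levels of the 9 genes in mESCs were compared per kilobase of exon. Id1 had the highest median over the 6 mESC libraries, 36.4 CPM per kilobase, followed by Bmpr1a at 16.9, Id3 at 16.5, Id2 at 13.6, Smad5 at 6.76, Bmp4 at 3.94, Smad6 at 1.58, Msx2 at 0.604 and Msx1 at 0.143. The lowest and highest libraries of Bmpr1a (15.2 and 19.4), Id3 (13.3 and 20.5) and Id2 (9.90 and 20.8) overlapped, so these 3 neighbours did not differ beyond their spread. At 96 hr Id1 still led with a median of 47.5 CPM per kilobase, and Msx1 had moved from the last place to 3.59, above Smad6 (1.55), Bmp4 (1.08) and Msx2 (0.379).

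**Figure D1:**
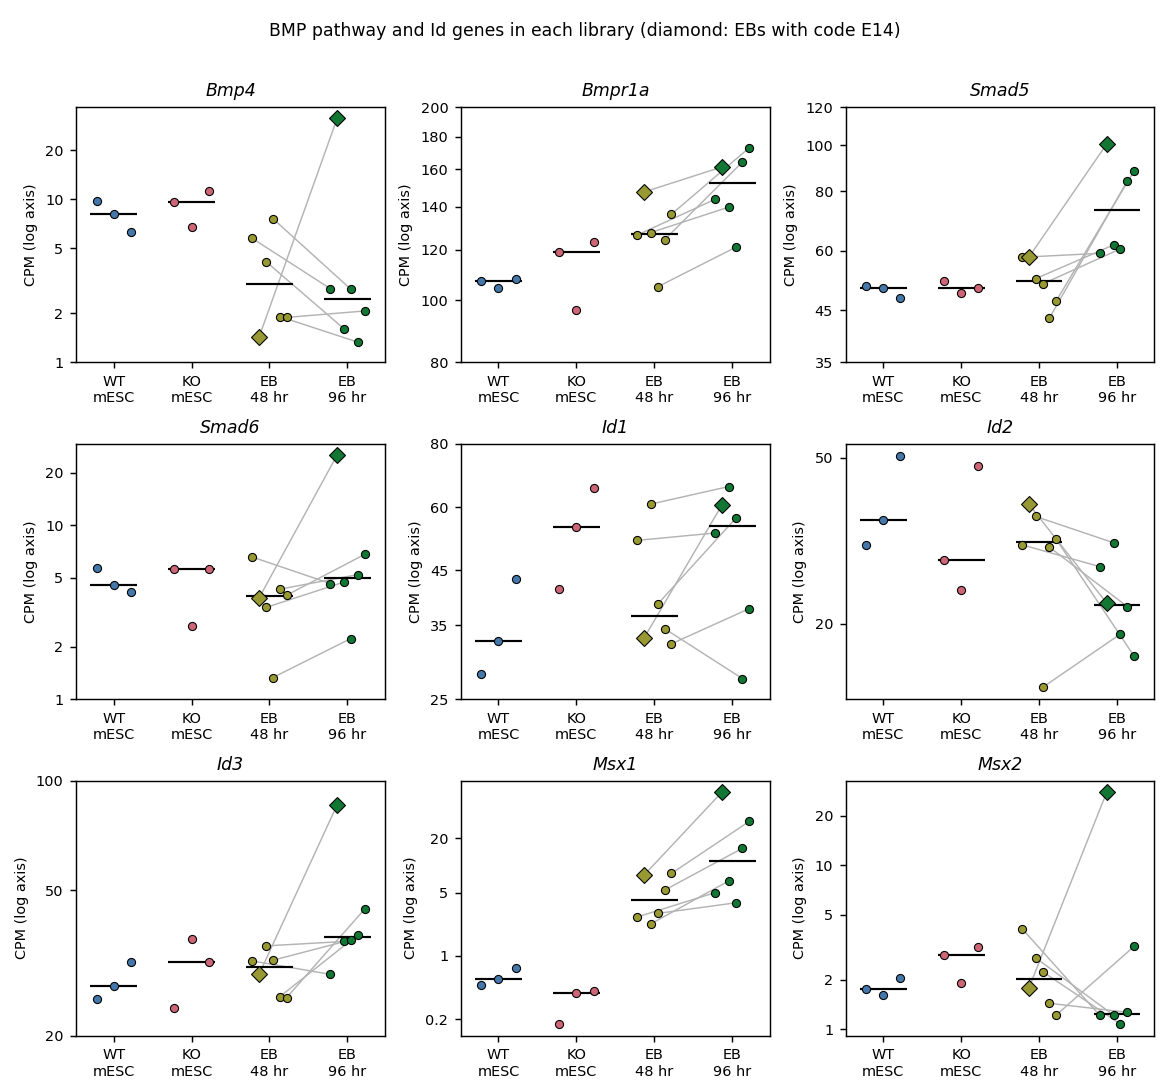
CPM (log axis) of each of the 9 genes in every library, with 1 point per library, a black bar at the group median, grey lines joining EBs of the same code at 48 hr and 96 hr, and diamonds for code E14. At 96 hr the diamond stands far above the other libraries for Bmp4 (31.2 CPM), Smad6 (25.4) and Msx2 (27.9), while Msx1 rises from below 1 CPM in every mESC library to 3.86 CPM or more in every 96 hr library.

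The first comparison asked whether loss of IκBα changed the pathway in mESCs. None of the 9 genes was called between IκBα-KO and IκBα-WT mESCs by edgeR's quasi-likelihood test, against 4.79% of the 21843 genes tested. At an unadjusted p under 0.05, 1 of the 9 (Id1) passed, against 21.6% of all genes. The DESeq2 Wald test also called 1 (Id1), against 9.82% of all genes.

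Bmp4 (chromosome 14, 46383520 to 46390669), the ligand, was at 9.69, 8.07 and 6.27 CPM in WT clones 1 to 3 and at 9.66, 6.79 and 11.2 CPM in KO clones 1 to 3. The genotypes overlapped (log2 fold change 0.20, SE 0.23, adjusted p = 0.668 by edgeR). Its receptor Bmpr1a (chromosome 14, 34410734 to 34503341) was at 107, 105 and 108 CPM in WT and at 119, 96.5 and 123 CPM in KO clones, a difference of 0.08 (SE 0.10, adjusted p = 0.686, edgeR) in log2. KO clone 2 lay below and the other KO clones above every WT clone. Smad5 (chromosome 13, 56703010 to 56742377) was the steadiest member, at 50.7, 50.2 and 47.8 CPM in WT and 52.0, 49.1 and 50.04 CPM in KO clones, and its log2 fold change was 0.02 (SE 0.07). Exons of Bmp4, Bmpr1a and Smad5 share 89, 290 and 100 bases with other annotated genes, so a small part of their reads could belong to those.

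Smad6 (chromosome 9, 63953076 to 64022059), which blocks receptor-activated Smads, had 5.66, 4.53 and 4.13 CPM in WT and 5.58, 2.65 and 5.61 CPM in KO clones. KO clone 2 was the low one, and in that clone the 64 genes tested in the surrounding 10 Mb had a median of -0.33 in log2 CPM against the WT mean. With that regional level taken out, the log2 fold change of Smad6 was 0.0096 instead of -0.05. The same clone was low across the window of Id2 (-0.39 over 32 genes). Id2 (chromosome 12, 25093799 to 25097140) was at 30.9, 35.4 and 50.6 CPM in WT and 28.5, 24.1 and 47.8 CPM in KO clones, with clone 3 the highest of either genotype and the groups overlapping (log2 fold change -0.22, SE 0.27, adjusted p = 0.696 by edgeR).

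Id1 (chromosome 2, 152736251 to 152737410) had the lowest p of the 9 in this comparison. It was at 28.03, 32.6 and 43.3 CPM in WT and at 41.2, 54.9 and 65.5 CPM in KO clones. KO clone 1 lay below WT clone 3, and otherwise the KO clones were higher. The log2 fold change was 0.64 (SE 0.19, p = 0.0105, adjusted p = 0.104 by edgeR; exact two-sided permutation test over the 6 libraries, p = 0.2). It was called by the DESeq2 Wald test (adjusted p = 0.0258) and by edgeR with the clone number as a replicate block (log2 fold change 0.63, adjusted p = 0.0220), although those numbers do not pair the clones. Id3 (chromosome 4, 136143497 to 136145755), at 25.3, 27.3 and 31.8 CPM in WT and 23.7, 36.7 and 31.9 CPM in KO clones, overlapped fully (log2 fold change 0.13, SE 0.16).

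The Msx genes were low in mESCs. Msx1 (chromosome 5, 37820485 to 37824583) had 14 to 22 counts in the WT libraries and 6 to 16 in the KO libraries, or 0.475, 0.558 and 0.726 CPM in WT and 0.176, 0.392 and 0.409 CPM in KO clones. No KO clone reached the lowest WT clone, while 28.9% of all genes tested had genotypes that did not overlap in 1 direction or the other. The log2 fold change of -0.83 (SE 0.38, adjusted p = 0.255 by edgeR) did not pass, and an exact permutation test of 3 against 3 gave p = 0.1, the smallest it allows. Msx2 (chromosome 13, 53466884 to 53473074) went the other way in value, at 1.76, 1.61 and 2.05 CPM in WT and 2.85, 1.91 and 3.19 CPM in KO clones, with KO clone 2 inside the WT range (log2 fold change 0.55, SE 0.25, adjusted p = 0.249 by edgeR).

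Without KO clone 2 more genes were called in general, 17.8% instead of 4.79% of all genes tested. Of the 9 genes 2 were called in that fit (22.2%). They were Bmpr1a, with a log2 fold change of 0.19 (adjusted p = 0.0224), and Msx2, with 0.75 (adjusted p = 0.0223, edgeR). KO clones 1 and 3, which remain, are the ones with the high primitive endoderm marker sums given above, and the part of those cells in the 2 calls was not tested.

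The wider pathway was read from a list of 69 genes of the BMP pathway, of which 64 were tested in mESCs. Of these, 2 were higher and 2 lower in IκBα-KO mESCs (6.25% called, beside 4.79% of all genes). The median log2 fold change of the list was 0.08, beside 0.01 over all genes. Bmp6, another ligand, was at 0.983, 0.952 and 0.726 CPM in WT and 2.23, 1.79 and 3.13 CPM in KO clones (log2 fold change 1.42, SE 0.29, adjusted p = 0.0337 by edgeR). Bmp8b, a ligand known from germ cell development, was lower, at 3.56, 3.05 and 4.75 CPM in WT and 1.76, 2.16 and 1.83 CPM in KO clones (-0.98, SE 0.22, adjusted p = 0.0451 by edgeR). Skil, which encodes the Smad co-repressor SnoN, fell by 0.85 in log2 (SE 0.10, adjusted p = 0.00626 by edgeR) from 256, 314 and 322 CPM to 154, 183 and 157 CPM. Tfap2a, a transcription factor induced by BMP in surface ectoderm, rose by 1.11 (SE 0.23, adjusted p = 0.0360 by edgeR) from 1.46, 1.18 and 1.25 CPM to 2.64, 2.38 and 3.41 CPM. In each of the 4 genes no KO clone overlapped a WT clone, as held for 28.9% of all genes tested. The 4 were picked by their calls, so this separation adds no evidence. The 7 receptors, 5 co-receptors, 13 tested secreted antagonists, 4 signal-transducing Smads and 4 Id genes gave no call. The number of calls depended on single clones, in the list as over all genes. Without KO clone 2, edgeR called 16 genes of the list (25.8%), beside 17.8% of all genes. Without KO clone 1, KO clone 3 or WT clone 1 it called 1 of the list each time, beside 381, 264 and 318 genes in all. Without WT clone 3 it called 0 of the list, beside 34 genes in all, and without WT clone 2 it called 0 genes of any kind. At an unadjusted p under 0.05 without WT clone 2, 5 of 63 list genes passed by edgeR (7.94%), beside 14.5% of all genes. Outside the fit without KO clone 2, the adjusted p of Bmp6, Bmp8b and Tfap2a was 0.0781 to 0.192, and that of Skil reached 0.0672 without WT clone 2 and 0.0585 without WT clone 3.

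The second comparison followed the pathway from mESCs to EBs. At 48 hr, 1 of the 9 genes was called against mESCs, beside 27.9% of all 25318 genes tested (14.9% higher). This was Msx1, at 2.26, 4.13 and 8.14 CPM (lowest, median and highest of 6 libraries) against 0.176 to 0.726 CPM in the 6 mESC libraries. It was at 2.69, 2.26 and 2.95 CPM in D4, E2 and E3. In E14, H7 and H9 it was at 7.80, 5.32 and 8.14 CPM. All 48 hr libraries lay above all mESC libraries, which held for 16.7% of genes in either direction. The log2 fold change was 3.41 (SE 0.67, adjusted p = 0.000799 by edgeR), or 10.6-fold. Since this is RNA from whole cultures, more cells with Msx1 and more Msx1 per cell cannot be told apart, here and in the values that follow.

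The other members at 48 hr gave these values. Bmp4 ran from 1.44 to 7.60 CPM with a median of 3.03, beside 6.27 to 11.2 CPM in mESCs. It was at 5.75, 4.14 and 7.60 CPM in D4, E2 and E3. In E14, H7 and H9 it was at 1.44, 1.91 and 1.89 CPM, so no library lay near the median. Only the library E3, at 7.60 CPM, lay inside the mESC range, and the log2 fold change was -1.18 (SE 0.68, adjusted p = 0.219 by edgeR). When the divergent 96 hr library E14 was left out of the fit, the same difference of -1.19 was called (adjusted p = 0.0170). Bmpr1a stood at 105 to 148 CPM (median 127), with a log2 fold change of 0.22 (SE 0.09, adjusted p = 0.0817 by edgeR) that was called without the 48 hr library E3 (0.27, adjusted p = 0.0269). Smad5, Id1, Id2, Id3, Smad6 and Msx2 had log2 fold changes between -0.27 and 0.05, and all overlapped the mESC range. Id2 was at 30.5 to 38.7 CPM in 5 of the 48 hr libraries and at 14.1 CPM in E3. Post-implantation epiblast markers at 48 hr summed to 893, 1051 and 936 CPM in D4, E2 and E3. In E14, H7 and H9 they summed to 2496, 2267 and 2692 CPM. These are the same codes that split for Bmp4 and Msx1, and the part of such cells in both genes was not tested.

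**Figure D2:**
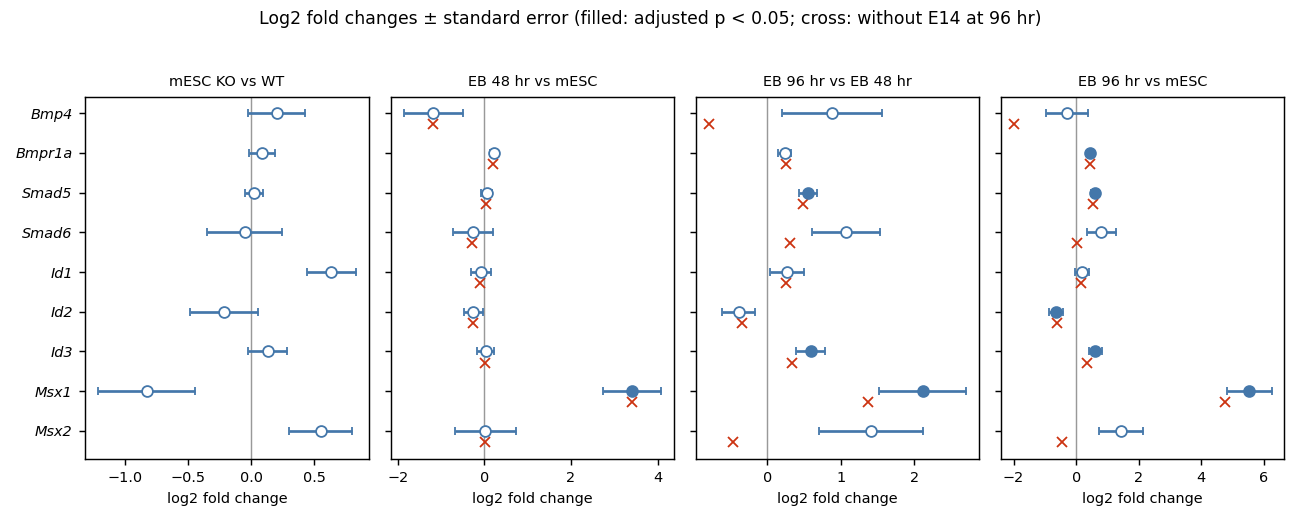
Log2 fold change of the 9 genes in the 4 comparisons, as points with bars of 1 standard error from edgeR, filled where the adjusted p was under 0.05; crosses show the stage values without the 96 hr library E14. Msx1 is filled in the 3 stage comparisons and no gene is filled between genotypes; for Bmp4 and Msx2 the cross lies on the other side of 0 from the point between 48 hr and 96 hr, at -0.80 and -0.47.

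Between 48 hr and 96 hr, 3 of the 9 genes were called higher and 0 lower by edgeR (0 lower also at an unadjusted p under 0.05), beside 13.9% of all genes higher, 13.8% lower and 27.7% called in either direction. The receptor gene and Smad5 were higher at 96 hr in 6 of 6 codes, as 35% of genes kept 1 direction in all codes. Smad5 was at 43.3 to 58.2 CPM (median 51.8) at 48 hr and at 59.3 to 101 CPM (median 72.9) at 96 hr, and the stages did not overlap, as for 8.94% of genes. In E14, H7 and H9 Smad5 rose to 1.73, 1.94 and 1.87 times its 48 hr level. In D4, E2 and E3 it rose to 1.02, 1.18 and 1.18 times that level. Its log2 fold change was 0.55 (SE 0.12, adjusted p = 0.00286 by edgeR). Bmpr1a, with 105 to 148 CPM at 48 hr and 121 to 173 CPM (median 153) at 96 hr, overlapped between the stages. Its log2 fold change of 0.24 (SE 0.09) had an adjusted p of 0.0610 by edgeR, and with the code as a replicate block, which compares each EB code with itself, the adjusted p was 0.00430 (log2 fold change 0.26). In that blocked fit 3 members (Bmpr1a, Smad5 and Msx1) were called, beside 37.7% of all genes.

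Msx1 rose further, to 3.86, 11.1 and 64.6 CPM (lowest, median and highest) from 2.26, 4.13 and 8.14 CPM. It was higher at 96 hr in 6 of 6 codes (log2 fold change 2.12, SE 0.59, adjusted p = 0.0138 by edgeR). The 3 highest 96 hr libraries were E14 at 64.6, H9 at 30.7 and H7 at 15.5 CPM, and the others lay at 3.86 to 6.74 CPM. The same 3 libraries had the highest sums of 8 markers of primitive streak and early mesoderm (1220, 958 and 619 CPM), against 17.8 to 27.6 CPM in the others, and the part of such cells in the result was not tested. They also had the highest Smad5 at 96 hr (101, 88.3 and 84.1 CPM), and the part of such cells in Smad5 was not tested either. Without E14 at 96 hr the log2 fold change of Msx1 was 1.37 (adjusted p = 0.0534 by edgeR), while the fit with the code as a replicate block kept the call without that code (1.32, adjusted p = 0.00282).

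Among the Id genes, Id3 rose from 25.4 to 35.2 CPM (median 30.8) at 48 hr to 29.5 to 85.8 CPM (median 37.2) at 96 hr, higher in 5 of 6 codes (log2 fold change 0.59, SE 0.20, adjusted p = 0.0377 by edgeR). In E14, H7 and H9 its 96 hr level was 2.91, 1.48 and 1.75 times that at 48 hr. In D4, E2 and E3 it was 0.919, 1.03 and 1.14 times that at 48 hr. With the code as a replicate block the adjusted p was 0.0893, and it lay between 0.0509 and 0.0696 when any 1 of the 48 hr libraries E14, E3, H7 and H9 or the 96 hr libraries E14 and H9 was left out. Without E14 at 96 hr the log2 fold change was 0.33. Id1 had a median of 36.5 CPM at 48 hr and 55.1 CPM at 96 hr, with ranges of 32.2 to 60.8 and 27.4 to 65.9 CPM, and was higher in 5 of 6 codes (log2 fold change 0.27, SE 0.23, adjusted p = 0.414 by edgeR). Id2 was lower at 96 hr in 5 of 6 codes, with a median of 22.2 CPM beside 31.4 CPM, and the code E3, whose 48 hr value was 14.1 CPM, was the exception. Its log2 fold change of -0.39 (SE 0.22, adjusted p = 0.201 by edgeR) was called without the 48 hr library E3 (-0.54, adjusted p = 0.0424). All 3 Id genes overlapped between the stages, and whether they differed from one another was not tested.

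The remaining 3 members had 1 library far above the others at 96 hr. Bmp4 was at 1.33 to 2.83 CPM in 5 libraries, below all mESC libraries, and at 31.2 CPM in E14, 11.01 times the highest of the other 5. Msx2 was at 1.08 to 3.20 CPM in 5 libraries and at 27.9 CPM in E14, 8.72 times the highest other. Smad6 was at 2.23 to 6.80 CPM and at 25.4 CPM in E14, 3.73 times the highest other. With these libraries together, the log2 fold changes from 48 hr to 96 hr were 0.88 for Bmp4 (SE 0.68, adjusted p = 0.357), 1.41 for Msx2 (SE 0.71, adjusted p = 0.148) and 1.07 for Smad6 (SE 0.47, adjusted p = 0.0948), all by edgeR. Without E14 at 96 hr they were -0.80 (adjusted p = 0.143), -0.47 (adjusted p = 0.345) and 0.31 (adjusted p = 0.522). By code, Bmp4 and Msx2 were lower at 96 hr in 4 of 6. For Bmp4 the fit with the code as a replicate block and without code E14 gave a called decrease (-0.84, adjusted p = 0.0290). Smad6 was called only when the 96 hr library E3 was left out (1.26, adjusted p = 0.0337).

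Library E14 at 96 hr was the highest of the 6 for 6 of the 9 genes, and 4 of them (Bmp4, Smad6, Msx1 and Msx2) were more than 1 log2 unit above every other 96 hr library, as were 2.19% of genes. Id3 was 1.93 times and Smad5 1.14 times the highest other library there. Bmpr1a, Id1 and Id2 lay inside the range of the other libraries, at 161, 60.6 and 22.4 CPM. Of the 50 pathway genes averaging 50 counts or more, 13 stood out in E14 in this way, but Bmp2, Bmper and Hand1 reached the mean count only through E14 itself. With the mean count taken over the other 17 libraries it was 10 of 46 pathway genes, 4 of the 9 members and 1.65% of all genes. The 13 were, besides the 4 members, the ligands Bmp2 (40.6 CPM, against 0.116 to 5.81 in the others) and Bmp7 (39.3, against 5.07 to 16.7), the pseudoreceptor Bambi (36.9, against 6.01 to 10.2), the extracellular regulators Bmper and Cer1, and the transcription factor genes Gata2 (48.3, against 0.920 to 4.56), Gata3, Hand1 (87.1, against 0.381 to 2.28) and Hey1. These genes were singled out after their values were seen. At 48 hr the same code had the lowest Bmp4 of its stage, 1.44 CPM, and Msx2 and Smad6 inside the range of the others.

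In that 96 hr library the marker sums of several cell types were also at the extreme of the stage. Primitive endoderm markers summed to 343 CPM, against 37.1 to 124 CPM in the others, trophoblast markers to 372 against 40.3 to 279.8 CPM, and fibroblast markers to 48.7 against 14.7 to 32.3 CPM. Of the 8 trophoblast markers, Hand1 and Cdx2 were highest in E14 and the other 6 lay inside the range of the other libraries, with Eomes (252 CPM) and Hand1 (87.1 CPM) making up most of the sum. Of the 8 fibroblast markers 5 were highest in E14, and Thy1 (4.59, against 6.65 to 11.6 CPM) was below every other library. Of 8 primitive endoderm markers 5 were highest there and 3 lay inside the range of the others. Pluripotent markers summed to 838 CPM, against 1325 to 2609 CPM. None of the markers of these lists was at 0 counts in E14. Hand1 and Eomes stand in both the mesoderm and the trophoblast lists, and Cdx2 and Hand1 are also on the BMP list. The part of such cells in the Bmp4, Smad6 and Msx2 values was not tested.

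**Figure D3:**
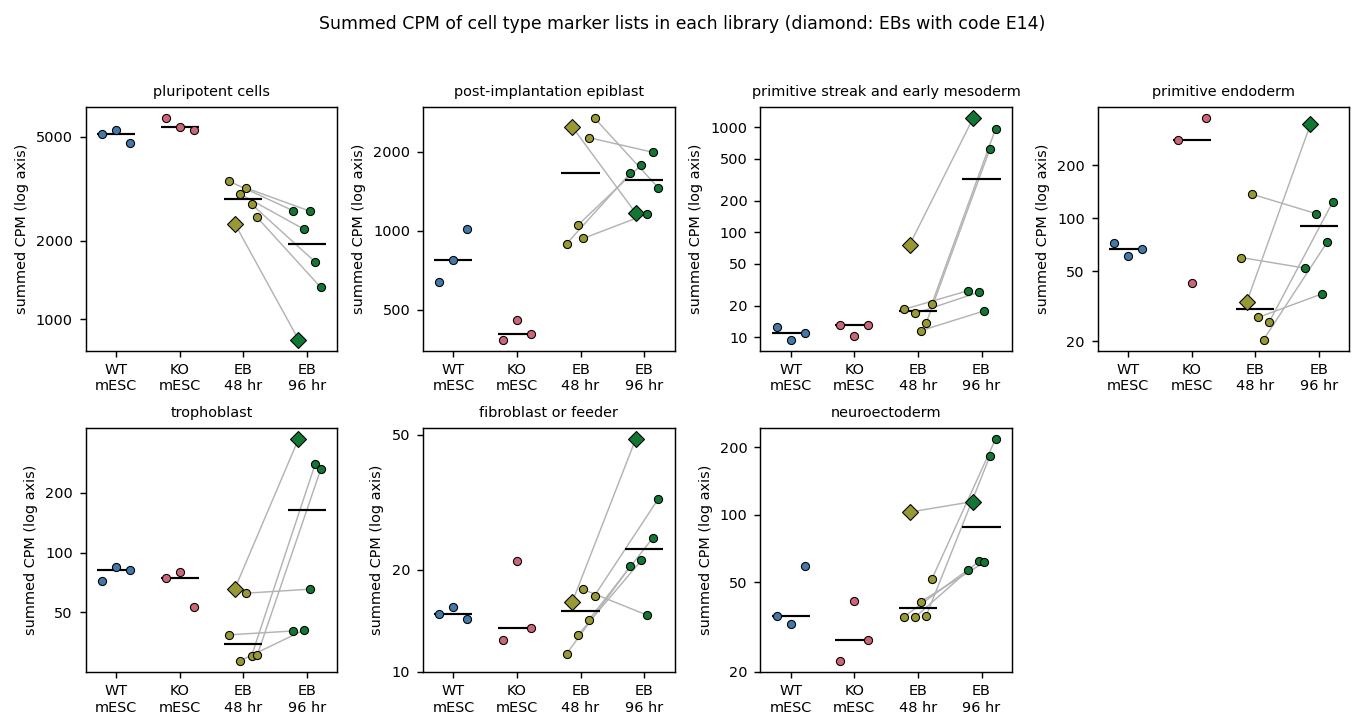
Summed CPM (log axis) of 7 marker lists in every library, with 1 point per library, black bars at group medians, grey lines joining EBs of 1 code and diamonds for code E14. At 96 hr the E14 library has the highest sums of primitive streak and early mesoderm (1220 CPM) and primitive endoderm (343 CPM) markers and the lowest sum of pluripotent markers (838 CPM); in mESCs the KO clones 1 and 3 have the highest sums of primitive endoderm markers.

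From mESCs to 96 hr EBs, which uses the same mESC and 96 hr libraries as the comparisons above and is no independent evidence, 5 of the 9 genes were called, beside 43% of all genes (22.7% higher and 20.3% lower). Msx1 was 5.53 higher in log2 (SE 0.71, adjusted p = 8.35e-06 by edgeR) and its 96 hr libraries lay above all mESC libraries, while 22.9% of genes did not overlap. Bmpr1a (0.46, adjusted p = 0.000578), Smad5 (0.60, adjusted p = 0.000551, no overlap) and Id3 (0.61, adjusted p = 0.0199, and 0.35, adjusted p = 0.0361, without E14 at 96 hr) were also higher by edgeR. Id2 was lower, with a median of 22.2 CPM beside 33.2 CPM in mESCs (log2 fold change -0.65, SE 0.22, adjusted p = 0.0260 by edgeR), and its adjusted p lay between 0.0504 and 0.0706 without the 96 hr library E14 or H9, KO clone 3 or WT clone 3. Bmp4 had a log2 fold change of -0.30 (adjusted p = 0.747 by edgeR). Without E14 at 96 hr it was -1.99 (adjusted p = 0.000590 by edgeR), but that library was left out after its high Bmp4 was seen. Bmpr1a and Smad5 were higher in that fit too. Other ligand genes went both ways there, with Bmp2 (2.69, adjusted p = 0.0144) and Bmp7 (1.62, adjusted p = 0.000273) higher and Bmp8b (-0.89, adjusted p = 0.0387, edgeR) lower. Msx2 was 1.43 with and -0.46 without E14 at 96 hr, called in neither fit.

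The 69-gene list gave the setting of these changes by role. Of 68 genes tested between stages, 9 were higher and 4 lower at 48 hr than in mESCs (19.1% called, beside 27.9% of all genes), with a list median of 0.04 in log2 beside 0.004 over all genes. The 4 lower ones were Id4, the Smad inhibitor gene Tob1, the type I receptor gene Acvrl1 and the homeobox gene Dlx3, the last 2 named after their values were seen. From 48 hr to 96 hr, 28 were higher and 1 (Dlx5, named after its value was seen) was lower, beside 13.9% and 13.8% of all genes, with a median of 0.47 beside -0.03. Without E14 at 96 hr the counts were 18 and 2 of 68, or 29.4% in either direction beside 21.4% of all genes. With the code as a replicate block they were 26 and 3 of 67, beside 37.7% of all genes called in either direction. In that fit Nog, Bmper, Smad1, Id3, Gata2, Hand1 and Cdx2 were no longer called. Bmpr1a (higher), Smad9 and Tfap2a (both lower) were among the genes newly called.

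Of 7 receptor genes, 3 were higher and 1 (Acvrl1) lower at 48 hr (57.1% called, beside 27.9% of all genes). From 48 hr to 96 hr 4 were higher and 0 lower (57.1%, beside 27.7% of all genes). Those higher at 48 hr were Acvr1, a type I receptor, by 0.81 (SE 0.12, adjusted p = 6.11e-05), Acvr2b, a type II receptor, by 0.77 (SE 0.11, adjusted p = 2.62e-05) and Bmpr1b by 1.22 (SE 0.31, adjusted p = 0.00564, all by edgeR). From 48 hr to 96 hr the type II receptor genes Acvr2a, Acvr2b and Bmpr2 rose by 0.55, 0.45 and 0.41. Of 4 signal-transducing Smads, 3 rose in that step: Smad1 by 0.69 (adjusted p = 0.0193, and 0.63 with adjusted p = 0.0502 in the fit with the code as a replicate block), Smad5 by 0.55 and the common partner Smad4 by 0.42 (adjusted p = 0.0124, edgeR). The blocked fit called the fourth, Smad9, lower (-0.78, adjusted p = 0.0392, edgeR).

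From 48 hr to 96 hr, 27.3% of ligand, 60% of co-receptor and 42.9% of secreted antagonist genes were called, beside 27.7% of all genes. For intracellular inhibitors the share was 12.5%, and for other targets it was 58.3%. Of 11 ligand genes 3 were higher at 96 hr than at 48 hr, among them Bmp2 (median 0.154 to 1.43 CPM, log2 fold change 5.95, adjusted p = 0.00263, and 3.77 without E14) and Bmp7 (1.73 to 7.47 CPM, 2.80, adjusted p = 0.000323, edgeR). Of 5 co-receptors 3 rose, Tgfbr3 by 2.62, Rgma by 1.74 and Rgmb by 1.07. Of 14 secreted antagonists 6 rose, led by Cer1 (8.32, adjusted p = 0.00115), Bmper (3.82, adjusted p = 0.0214) and Fst (2.79, adjusted p = 0.0356, edgeR). Without E14 at 96 hr Bmper (1.79, adjusted p = 0.170) and Fst (2.81, adjusted p = 0.0536) were not called, and with the code as a replicate block Bmper (1.62, adjusted p = 0.349) was not. Of 8 intracellular inhibitors 1 rose, Smurf2, a ubiquitin ligase for Smads and receptors, by 0.31. Among 12 other targets 6 rose and 1 fell; Hand1 was 4.59 higher with and 0.64 without E14 (adjusted p = 0.321, edgeR), and Cdx2 2.65 with and 1.88 without it (adjusted p = 0.0519, edgeR). The E-protein gene Tcf12, whose product is a partner of Id proteins, rose by 0.80 (adjusted p = 0.00847), and Tcf3 had risen already at 48 hr by 0.65 (adjusted p = 2.57e-05, edgeR).

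**Figure D4:**
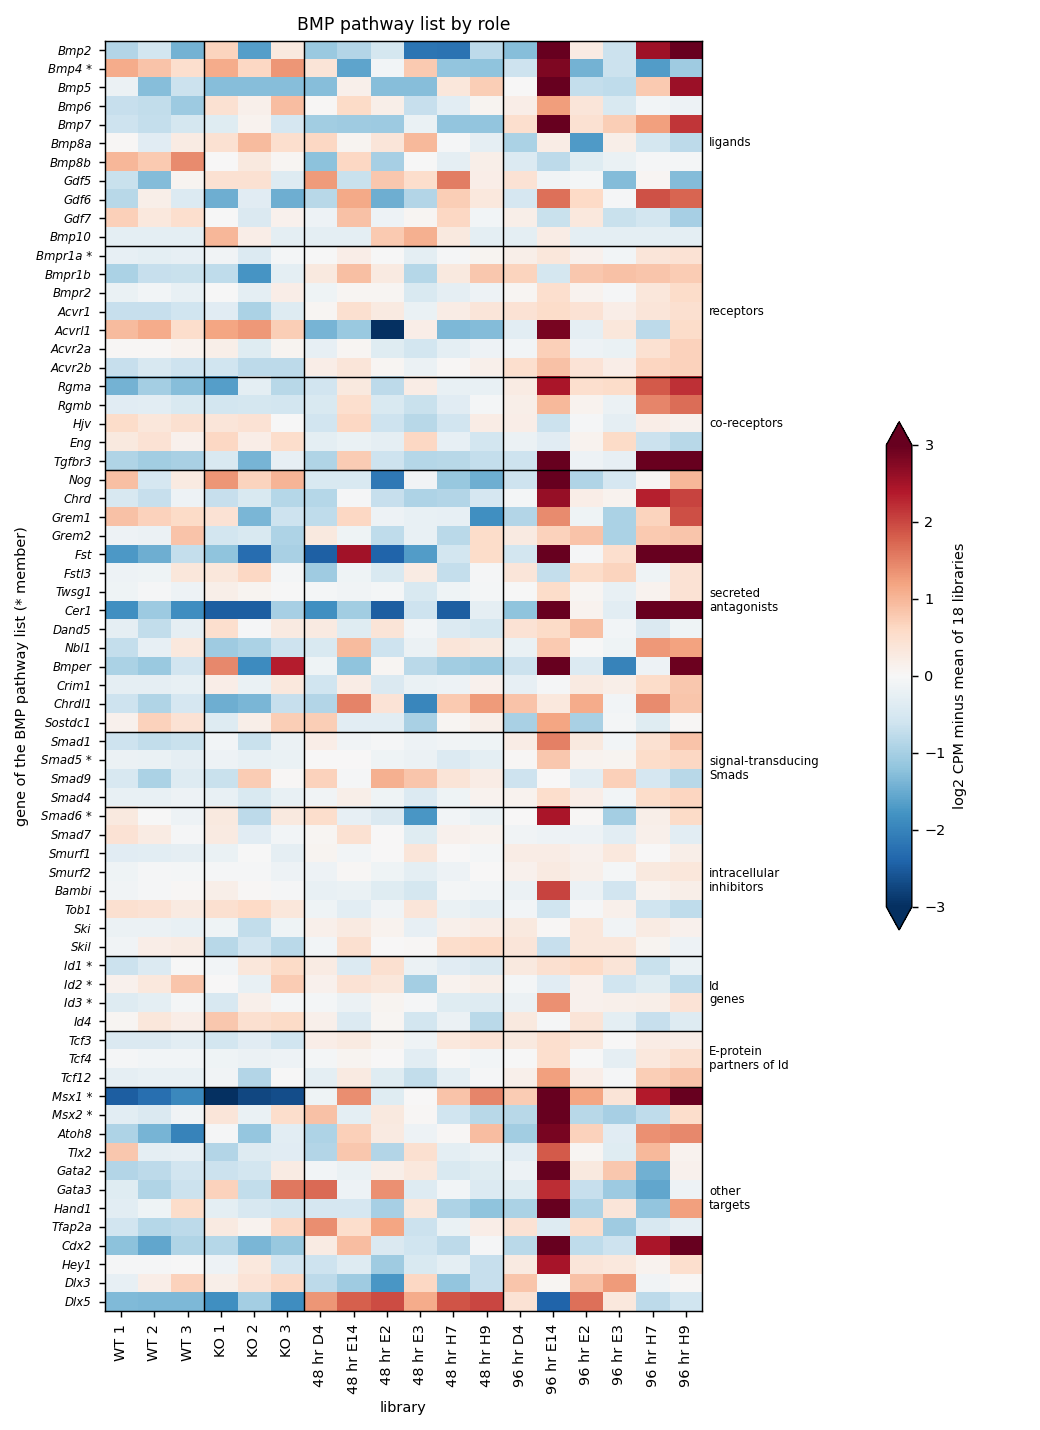
Log2 CPM of 68 genes of the BMP pathway list in the 18 libraries, each gene minus its mean over the libraries (red above, blue below, colour range -3 to 3), grouped by role with the 9 members starred. The column of E14 at 96 hr is red for most ligands, antagonists and other targets, and the row of Msx1 goes from blue in mESCs to red at 96 hr.

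The genes whose log2 CPM followed each member most closely over the 18 libraries were found by the mean absolute difference after centring each gene on its own mean, for genes averaging 50 counts or more. For Bmp4 these were Parvb (0.39), Gata1 (0.41) and Nid1 (0.44), beside a mean absolute deviation of Bmp4 itself of 1.06. Msx1, with a deviation of 1.80, was nearest to Prtg (0.52), Pcdh8 (0.52) and Vrtn (0.53). Msx2 (0.69) was nearest to Robo3 (0.31), Kirrel (0.34) and Apcdd1 (0.35). For Smad5 the nearest were Mef2a, Nf1 and Stard3 (0.08 to 0.09), for Bmpr1a Slc30a7, Ercc1 and Pigo (0.06 to 0.07), and for Smad6 Grcc10, Baz2b and Tirap (0.29 to 0.31). Id1 was nearest to Slc25a4 (0.20), Id2 to Erh (0.20) and Id3 to Kif3a (0.16), beside deviations of 0.38, 0.37 and 0.27, so no member had another member among its nearest 3.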

How the data were processed

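The authors trimmed reads with Trim Galore 0.6.6, aligned them with STAR 2.7.8 to GRCm38, assigned reads with a unique alignment to exons by featureCounts (Subread 2.0.1), and deposited the resulting raw counts of 55487 genes. The strand setting is not given in the sources used here. The authors' second table, normalized values on a log2 scale, was not used. EB columns carry clone codes that the sources used here do not pair with a genotype, so 12 columns entered by stage only.

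Genes reaching 10 counts in the libraries of a fit were tested with edgeR 4.0.16 (TMM, robust quasi-likelihood, Benjamini-Hochberg) in R 4.3.3: KO against WT in 6 mESC libraries, and 3 stages in 18 libraries. A prior count of 2 was added for log2 CPM. The SE is the log2 fold change divided by the root of the F statistic. DESeq2 1.42.0 was an alternative. On simulated counts edgeR recovered 76% of genes changed by 1 log2 unit between genotypes. Same-numbered WT and KO clones did not deviate together (correlations -0.12, -0.01 and -0.03), while EBs of 1 code did at 48 hr and 96 hr (0.40 to 0.73), so the code pairs those stages. The members and lists were chosen with earlier results of these data known. Besides the members and Nfkbia, the genes named are the called list genes in mESCs, the 3 largest called rises and falls of a role between stages, markers, and the 3 nearest genes of each member. The 10 Mb offsets use the median gene of a window with at least 10 genes. Leaving out stage libraries, and code E14 from the blocked fit or the mean count, was chosen after the data were seen.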

Additional observations from a re-analysis of the deposited data

Results flagged for a closer look

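Of 18 sets of 6 EB libraries (9 genes at 2 stages), 5 held a library set apart from the rest by a gap large against the range, where chance gives about 1 in 20 for independent sets. The 9 genes share the same libraries and are not independent, and over all 13177 genes averaging 50 counts or more such a gap was found for 1388 genes at 48 hr and 1349 at 96 hr. In 4 of the 5 it was code E14 at 96 hr, with Bmp4 at 31.2 CPM, Smad6 at 25.4 CPM, Id3 at 85.8 CPM and Msx2 at 27.9 CPM. In the last it was code E3 at 48 hr, with Id2 at 14.1 CPM, below the other 5 libraries.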

How the results depend on the processing

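Of 783 single-gene values under the alternatives, 716 were counted as keeping their direction and their side of the threshold, 21 passed it, 19 no longer passed and 27 reversed. The cause was not tested. The DESeq2 Wald test gave no adjusted p for Bmp4 and Msx2 between stages, and those values were counted as not passing. Requiring an absolute log2 fold change over 1 left 372, 2422, 3003 and 5278 genes called (KO against WT, 48 hr against mESCs, 96 hr against 48 hr, 96 hr against mESCs), 2, 6, 19 and 23 of the list, and 0, 1, 1 and 1 members. In mESCs the DESeq2 Wald test called 2146 genes, 7 of the list and 1 member. The replicate numbers there do not pair the clones, and a replicate block gave 631 genes, 2 of the list and 1 member (Id1, log2 fold change 0.63, adjusted p = 0.0220). The code as a replicate block reversed Bmp4 between 48 hr and 96 hr (-0.21), and without code E14 it gave -0.84 for Bmp4 and -0.56 for Msx2; besides Bmpr1a and Id3 the block over all codes changed no call of a member, and without code E14 Bmp4 was called too. The 10 Mb offsets reversed Smad6 in mESCs (0.0096), and a filter of at least 1 count reversed Msx2 at 48 hr (-0.0081). With mESC clones left out in turn, 0 to 3736 genes, 0 to 16 of the list and 0 to 2 members were called by edgeR (0 genes without WT clone 2, where 3104 had an unadjusted p under 0.05), and the log2 fold changes ran from -0.0098 to 0.048 (Smad5), -0.22 to 0.24 (Smad6), -0.57 to 0.0091 (Id2) and -0.0065 to 0.28 (Id3). With each of the 18 libraries left out, 1 to 2 members were called at 48 hr, beside 6196 to 7583 genes in all. Between 48 hr and 96 hr it was 1 to 5 members, beside 5260 to 8589 genes. Between mESCs and 96 hr it was 4 to 5 members, beside 9854 to 11746 genes. Values that reversed ran at 48 hr from -0.0034 to 0.077 (Smad5), -0.22 to 0.061 (Id1), -0.046 to 0.10 (Id3) and -0.26 to 0.15 (Msx2), from 48 hr to 96 hr from -0.80 to 1.21 (Bmp4) and -0.47 to 1.70 (Msx2), and from mESCs to 96 hr from -0.46 to 1.65 (Msx2). In mESCs Msx1 rested on 6 to 22 counts and Msx2 on 49 to 117, the lowest minimum counts of the 9 genes.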
